A study of Zea mays with 27 samples.

Results

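Leaf RNA of maize plants kept under the plastic labelled LE was compared with leaf RNA of plants of the same genotype kept under the plastic labelled CA. These 6 arrays were chosen by their titles, which pair LE and CA leaf of 1 genotype, out of 27 dual-colour cDNA arrays of a study of UV radiation in genotypes of differing flavonoid content. The b,pl genotype and the bz2 genotype each had 2 arrays, 1 with LE in Cy5 and 1 with LE in Cy3. The B,Pl genotype (written B,PL on its LE array) and the line labelled mutator each had 1 array, with LE in Cy5. On all 6 arrays the other channel held adult leaf RNA of that genotype under CA. The labels give no plant age, exposure time, number of pooled plants or light transmission of the plastics, and mutator is described by that word alone.

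B and Pl are transcriptional regulators that switch on anthocyanin synthesis in vegetative tissue, and Bz2 acts late in that pathway, as a glutathione S-transferase through which the pigment reaches the vacuole. Anthocyanins and other flavonoids absorb UV light in leaf tissue. That the genotypes differ in flavonoid content is taken from the description of the study, and pigment was not measured here. Flavonoid pathway genes were not among the cDNAs with a gene name. Log ratios hold no level, so the leaf origin of the RNA could not be checked by the level of markers. The 3 genes for leaf photosynthesis and the C4 cycle that carried a name (Lhcb5-2, pep7 and fnr1) had 8 cDNAs with a median LE value of 0.10 on the log2 scale.

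Each spot carries a deposited log2 ratio of its 2 channels, but the channel used as numerator is not given in the sources used here. Each value was signed by dye, so that a positive value means more RNA under LE than under CA if the ratio is Cy5 over Cy3, and less if it is Cy3 over Cy5. With this signing the 2 arrays of a dye swap ran the same way: the Spearman correlation over cDNAs was 0.55 between the bz2 arrays and 0.22 between the b,pl arrays. Each array carried 5400 cDNAs as 3 adjacent spots, and 15517 to 16122 of 16200 spots had a value on the LE arrays. Of these cDNAs, 811 carried the name of 1 of 213 genes.

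The b,pl array with LE in Cy3 stood apart from the other 5. It had the fewest measured spots, 15517, and the widest spread over cDNAs, with an SD of 0.82 against 0.33 to 0.70. Its signed Spearman correlation with the other arrays was 0.09 to 0.22, whereas pairs among the other 5 arrays had 0.24 to 0.55. The labels do not say whether the arrays of a genotype came from separate plants, and p-values here reflect variation among arrays that may be only technical. The number of arrays limits the precision, and the spread of the CA control RNA itself was not measured.

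The first comparison asked which transcripts had a mean LE value other than 0 over the 6 arrays. It did not test whether the genotypes agreed. Among the cDNAs with a gene name, those that stood out belonged above all to INO1 and sam2. These genes had 19 and 32 cDNAs, most of them positive on every array. A linear model with an LE term and a dye term was fitted to the 6 arrays. It gave the mean of the 4 arrays with LE in Cy5 and the mean of the 2 arrays with LE in Cy3 equal weight. The b,pl and bz2 genotypes therefore weighed more in the estimate than B,Pl and mutator. At a limma adjusted p below 0.05, 352 of 5392 cDNAs passed, or 6.53% of those tested. Of these, 198 were positive (3.67%) and 154 were negative (2.86%). Of the 352, 300 had 1 sign on all 6 arrays, against 1112 of all 5259 cDNAs with a value on each (21.1%). The calls rest on these same values and favour cDNAs of 1 sign, so the count of 300 is not a separate result. Among the 352 were 67 named cDNAs, and the other calls had no gene name. Of the 67, 48 were positive and came from 17 genes, and 19 were negative and came from 14 genes. INO1 had 16 of the 48 and sam2 had 15. The sizes ran from 0.31 to 3.12, and 46 cDNAs had a size of at least 1 on the log2 scale, 29 of them positive. The number of calls rested on single arrays: 0 passed without the b,pl array with LE in Cy5 (1397 at an unadjusted p below 0.05 in limma), 0 without the bz2 array with LE in Cy5 (1243 unadjusted), 4 without the B,Pl array and 2 without the mutator array, while 447 passed without the b,pl array with LE in Cy3 and 454 without the bz2 array with LE in Cy3. With each dye swap averaged to 1 value per genotype, 0 passed (1233 unadjusted), and with genotype as a random block 39 did.

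INO1 (LOC542540) encodes inositol phosphate synthase, the first and rate-limiting enzyme of inositol synthesis, which leads to phytate, raffinose sugars and phosphoinositides. It was represented by 19 cDNAs. Their mean was 0.52 and 0.61 on the b,pl arrays, 0.99 and 1.34 on the bz2 arrays, 0.93 on the B,Pl array and 1.28 on the mutator array. All array means were positive, with the b,pl arrays lowest and the second bz2 array and the mutator array highest. The gene mean under LE was 0.95 (SE 0.15, n = 6 arrays, limma adjusted p = 0.0417 with the cDNAs of a gene averaged). Of the 19 cDNAs, 19 had a positive estimate, from 0.19 to 1.35 with a median of 1.06, and the median over all cDNAs was −0.004. On single arrays 18 and 17 of the 19 were positive in b,pl, and 19 of 19 on each of the other 4. The cDNAs share 1 target transcript and are not replicates of the condition. Over 13 alternatives the adjusted p of the gene mean ran from 0.0381 to 0.97 in limma and passed in 5. It did not pass in the model of all 27 arrays (limma adjusted p = 0.0954). The call was lost with genotype as a random block (limma adjusted p = 0.0684), with dye swaps averaged to 4 values (0.141), and without the b,pl or bz2 array with LE in Cy5, the B,Pl array or the mutator array (0.0913 to 0.125). The mean lay between 0.77 and 1.15 in the 12 that read the values by dye, and it was −0.02 when all values were read as LE over CA whatever the dye.

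The INO1 cDNA with the smallest p, at spot 2851, stood at 0.70 and 1.37 on the b,pl arrays, 1.27 and 1.86 on the bz2 arrays, 1.17 in B,Pl and 1.18 in mutator. All 6 values were above 0.6, and the arrays of the genotypes overlapped. Its estimate was 1.35 (SE 0.12, limma adjusted p = 0.0252). The INO1 cDNA at spot 13453 kept the largest distance from 0 of all named cDNAs, with values of 0.88, 0.91, 1.51, 1.30, 1.12 and 1.60 in the same order of arrays. Its estimate was 1.19 (SE 0.13, limma adjusted p = 0.0274). The INO1 cDNAs at spots 15358, 3106 and 13819 followed, with 1.24, 0.83 and 0.79.

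**Figure D1:**
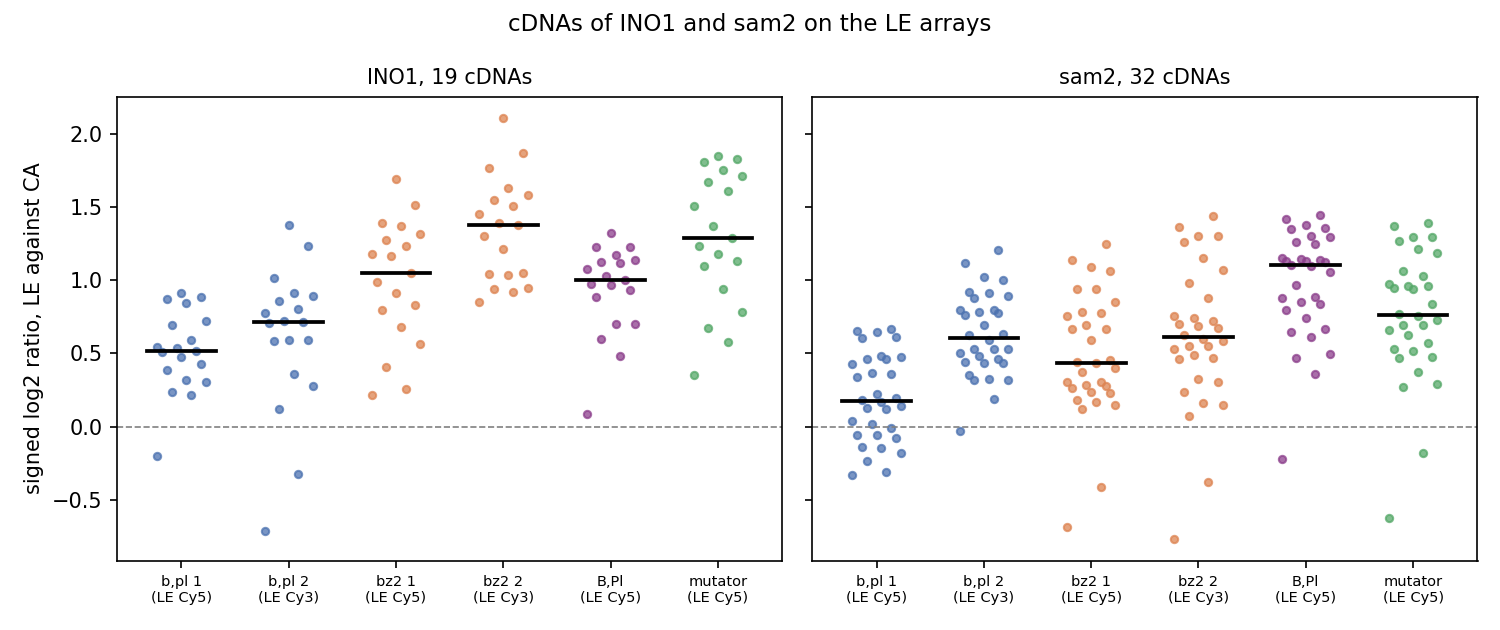
Signed log2 ratio of LE against CA (y axis) on each of the 6 LE arrays (x axis, dye of LE in brackets) for the 19 cDNAs of INO1 (left) and the 32 of sam2 (right). Each point is 1 cDNA, the black bar is the median over the gene's cDNAs, colours mark genotypes and the dashed line marks 0; the INO1 medians lie between 0.52 and 1.38, all above 0.

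The sam2 gene (LOC542733) encodes an S-adenosylmethionine synthetase, which makes the methyl donor for small molecules, lignin precursors, DNA and histones and the precursor of ethylene. Its 32 cDNAs had means of 0.20 and 0.63 on the b,pl arrays, 0.49 and 0.62 on the bz2 arrays, 0.97 in B,Pl and 0.76 in mutator. The first b,pl array was lowest and the B,Pl array highest, and all 6 means were positive. On the first b,pl array 22 of the 32 cDNAs were positive and 10 negative. On the second 31 were positive, on the bz2 arrays 30 and 30, in B,Pl 31 and in mutator 30. The gene mean was 0.62 (SE 0.12, n = 6 arrays, limma adjusted p = 0.0458 with cDNAs averaged), and 30 of 32 cDNAs had a positive estimate. The estimates spread from −0.31 to 1.07 among cDNAs assigned to this gene. The adjusted p passed in 1 of 13 alternatives. It did not pass without centring (limma adjusted p = 0.202), with scaled arrays (0.0878) or in the model of all 27 arrays (0.0663). The call was lost with genotype as a random block (limma adjusted p = 0.0684), with dye swaps averaged to 4 values (0.141) and without any 1 of the 6 arrays (0.0739 to 0.136). The mean lay between 0.56 and 0.76 in the 12 read by dye and at −0.01 when read as LE over CA whatever the dye. The cDNA with the smallest p, at spot 14677, had values of 0.61, 0.77, 0.59, 0.72, 1.15 and 0.96 and an estimate of 0.79 (SE 0.10, limma adjusted p = 0.0325). The sam2 cDNA at spot 12025 had 0.43, 0.89, 0.94, 1.26, 1.30 and 1.22, and that at spot 6901 had 0.61, 0.51, 0.67, 0.75, 1.13 and 0.84. On all 3 the B,Pl array was highest, and no value was near 0.

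Other enzymes of methionine and methyl transfer were measured by few cDNAs. The gene cgs1 encodes cystathionine gamma-synthase, the enzyme that commits carbon to methionine. Its only cDNA had values of 0.58, 1.13, 0.48, 0.59, 0.84 and 0.28 and passed at 0.70 (SE 0.12, limma adjusted p = 0.0362). PEAMT encodes phosphoethanolamine N-methyltransferase, which uses S-adenosylmethionine to make phosphocholine. Its cDNA at spot 5344 passed in the other direction, with −0.17, −0.61, −0.22, −0.43, −0.23 and −0.23 and an estimate of −0.37 (SE 0.07, limma adjusted p = 0.0402). The other 4 PEAMT cDNAs did not pass and ran from −0.91 to 0.32. The cDNA of HMT-2, a homocysteine methyltransferase gene, stood at −0.03. With sam2 included, the 39 cDNAs of the 4 genes had a median of 0.53, with 32 positive, 16 passing as positive and 1 as negative. Of the 39, 32 were sam2 cDNAs, which held 30 of the positive ones and 15 of those passing as positive. The median therefore mostly restates sam2. Of the 5 PEAMT cDNAs 4 were negative, as was the HMT-2 cDNA.

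Besides INO1, sam2 and cgs1, 14 named genes had cDNAs that passed as positive, 1 each except for nfd101 with 3. ANT1 encodes an adenine nucleotide translocator, which exchanges ADP and ATP across the inner mitochondrial membrane. Its cDNA at spot 14269 had 0.92, 0.51, 0.81, 0.87, 1.03 and 1.02, with no array near 0, and an estimate of 0.82 (SE 0.08, limma adjusted p = 0.0252). The other 11 ANT1 cDNAs did not pass, and the gene mean was 0.17 (limma adjusted p = 0.261). The gene pcna2 encodes proliferating cell nuclear antigen, the sliding clamp of DNA polymerase. Its cDNA at spot 4876 had 0.41, 0.73, 0.88, 1.06, 0.76 and 0.76 and an estimate of 0.80 (SE 0.10, limma adjusted p = 0.0325), and its other cDNA was negative. With the cDNAs of each gene averaged, 246 of 4794 genes and unnamed cDNAs passed (5.13%), and 7 of the 213 named genes did (3.29%), all positive. These were INO1, sam2, cgs1, the MADS-box gene m31 at 0.55, LOC542657 at 0.43, LOC606466 at 0.49 and LOC732796 at 0.43, with limma adjusted p between 0.0417 and 0.0476.

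Most genes with a passing negative cDNA had only 1, and the other cDNAs of that gene often had small values or the opposite sign. The genes sh1 and sus1 encode sucrose synthases, which split sucrose to supply nucleotide sugar. The sh1 cDNA at spot 3877 had −0.72, −2.28, −0.51, −1.39, −0.73 and −0.71, with the arrays of LE in Cy3 farthest from 0, and an estimate of −1.25 (SE 0.13, limma adjusted p = 0.0252). Of the 5 sh1 cDNAs, 3 were positive and the median was 0.07. The sus1 cDNA at spot 9964 had −0.51, −1.05, −0.46, −0.47, −0.47 and −0.49, which differed little between arrays apart from the second b,pl array, and an estimate of −0.62 (SE 0.10, limma adjusted p = 0.0358). Of the 11 sus1 cDNAs, 8 were negative and 1 passed.

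Tubulins, the subunits of microtubules, gave 8 negative calls among 117 cDNAs of 7 tubulin genes, and 0 positive ones. All cDNAs tested had 2.86% negative and 3.67% positive calls. Of the 7 genes, only the alpha-tubulin genes tua5, tua4 and TUA1 had negative calls. The tua5 cDNA at spot 1930 had −0.44, −1.29, −0.65, −1.05, −0.29 and −0.91 and an estimate of −0.87 (SE 0.11, limma adjusted p = 0.0325). It was the only 1 of 8 tua5 cDNAs that passed. On the b,pl arrays 4 of 8 and 5 of 7 tua5 cDNAs were positive, and on each of the other arrays 5 of 8 were negative. The tua4 cDNAs at spots 7324, 3142, 15277 and 9382 stood at −0.47, −0.56, −0.71 and −0.63 with limma adjusted p between 0.0325 and 0.0381. The 4 were negative on every array. Of the 57 tua4 cDNAs, 39 were negative and 5 passed, and of the 30 TUA1 cDNAs 2 passed. The median of the tubulin cDNAs was −0.10, and whether close family members cross-hybridised on these arrays was not tested. On the cDNA at spot 148 of csu503(met) (LOC541942) the values were −0.46, −2.34, −0.49, −0.83, −0.83 and −1.14, with an estimate of −1.16 (SE 0.22, limma adjusted p = 0.0415). On the SRP2B cDNA at spot 13507 they were −0.25, −0.35, −0.46, −0.67, −0.65 and −0.52, with −0.49 (SE 0.09, limma adjusted p = 0.0399).

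Among the cDNAs with no gene name, those at spots 12073 and 10129 were the positive ones that stayed farthest from 0. The cDNA at spot 12073 had 1.83 and 0.94 on the b,pl arrays, 1.15 on the lower bz2 array, 2.54 in B,Pl and 2.05 in mutator, with an estimate of 1.51 (SE 0.15, limma adjusted p = 0.0252). The cDNA at spot 10129 had 1.69, 0.77, 0.91, 1.01, 2.30 and 1.94 and an estimate of 1.30 (SE 0.19, limma adjusted p = 0.0336). On both, the B,Pl and mutator arrays were highest and the b,pl array with LE in Cy5 came next. The negative ones farthest from 0 were at spots 1723 and 15100, with estimates of −1.04 and −0.76. At spot 1723 the values lay between −1.30 and −0.84, with little difference between genotypes.

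Signs alone were counted over the 5259 cDNAs with a value on all 6 arrays. Of these, 1112 had 1 sign throughout (21.1%), 576 positive (11%) and 536 negative (10.2%). Of the 19 INO1 cDNAs 17 were positive on all 6 arrays. Of the 32 sam2 cDNAs 22 were positive on all 6 and 1 was negative on all 6. When each array also had to reach a size of 0.5, 23 positive and 5 negative cDNAs remained. Of the 23, 9 were INO1, 3 were sam2 and 1 was ANT1, and the other 10 had no name. The named one of the 5 was sh1. At a size of 0.75 there were 3 positive and 1 negative, and at a size of 1 there were 0.

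**Figure D2:**
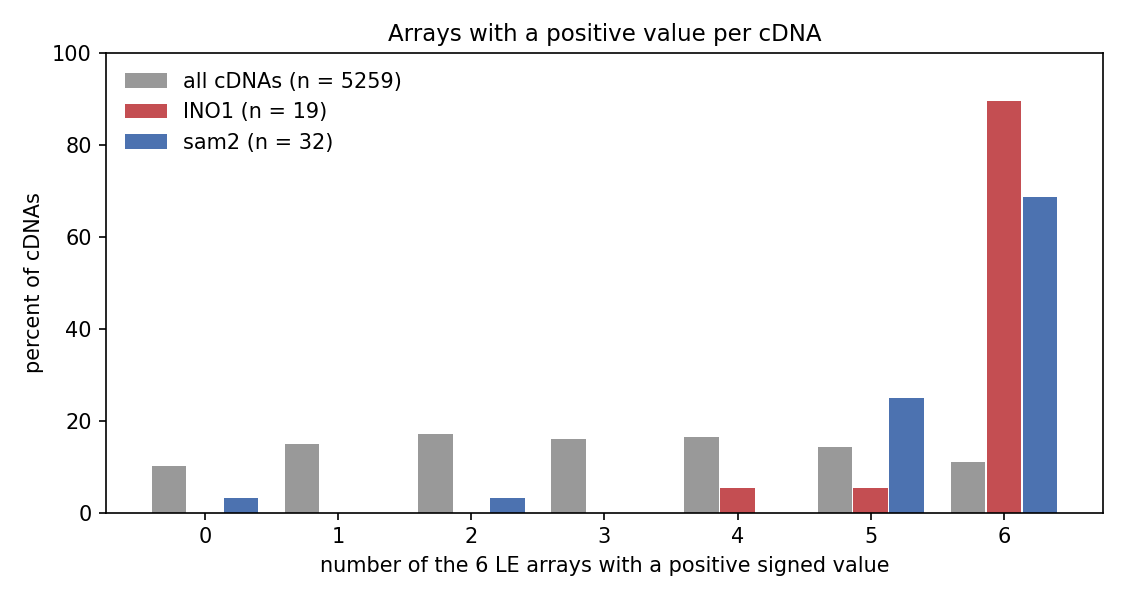
Percent of cDNAs (y axis) by the number of the 6 LE arrays with a positive signed value (x axis), for all 5259 cDNAs measured on 6 arrays, the 19 of INO1 and the 32 of sam2. All cDNAs are spread over the classes from 0 to 6, with 576 in the last one, whereas 17 INO1 and 22 sam2 cDNAs are in it.

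Genes with several cDNAs were also described by the share of their cDNAs with 1 sign. Of 70 named genes with at least 3 cDNAs, 24 had at least 80% of them on 1 side, 14 positive and 10 negative. Below INO1 and sam2 the highest median among them was that of eno1 (LOC732811), which encodes the glycolytic enzyme enolase. Its 5 cDNAs averaged −0.18 and 0.37 on the b,pl arrays, 0.41 and 0.83 on the bz2 arrays, 0.67 in B,Pl and 0.66 in mutator. On the first b,pl array 5 of 5 were negative, and on the bz2, B,Pl and mutator arrays 5 of 5 were positive. The mean of 0.49 did not pass (SE 0.15, limma adjusted p = 0.0982). The other enolase gene, eno2, had 4 of 4 estimates negative with a median of −0.19, and 3 of 4 were positive on the B,Pl array.

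The MADS-box transcription factor genes zap1 and m4 had 7 of 7 and 4 of 4 cDNAs positive, with gene means of 0.24 and 0.27 and limma adjusted p of 0.11 and 0.0825. LOC542657 had 6 of 7 positive, but 1 of its cDNAs reached 3.86 on the b,pl array with LE in Cy3. The 3 cDNAs of uaz7c01b01 had positive estimates with a median of 0.16, but 3 of 3 were negative on the B,Pl array, with a mean of −0.32. The aquaporin gene PIP1-3 had 6 of 7 positive estimates with a median of 0.14, and 5 of 7 were negative on the b,pl array with LE in Cy5. The alcohol dehydrogenase gene adh1 had 4 of 4 positive, with array means between 0.10 and 0.29, and 1 of them passed. GAPC2, a cytosolic glyceraldehyde-3-phosphate dehydrogenase, had 6 of 7 positive and 1 that passed, but its mean was −0.10 and −0.17 on the b,pl and bz2 arrays with LE in Cy5.

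On the negative side csu503(met) had 19 of 21 cDNAs below 0. Its means were −0.36 and −0.23 on the b,pl arrays, −0.17 and −0.37 on the bz2 arrays, −0.72 in B,Pl and −0.56 in mutator. All 6 were negative, with B,Pl farthest from 0, and the gene mean of −0.38 did not pass (SE 0.10, limma adjusted p = 0.0757). SRP2B had 3 of 3 and PP1, a protein phosphatase gene, 4 of 4 negative, with means of −0.34 and −0.27 and limma adjusted p of 0.0752 and 0.0895. The small heat shock gene hsp18f had 3 of 3 negative with a mean of −0.21. HSP70 chaperone genes hsp70-5 and hsp70-4 had 18 of 22 and 18 of 21 negative, with means of −0.15 and −0.09, and 0 of these cDNAs passed. The arrays did not all run this way. On the b,pl array with LE in Cy3, 15 of 22 hsp70-5 and 16 of 21 hsp70-4 cDNAs were positive, and in mutator 12 of 21 hsp70-4 cDNAs were. The hsp70-4 mean was −0.17 without that b,pl array and −0.012 without the bz2 array with LE in Cy3, and the hsp70-5 mean was −0.23 and −0.068.

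**Figure D3:**
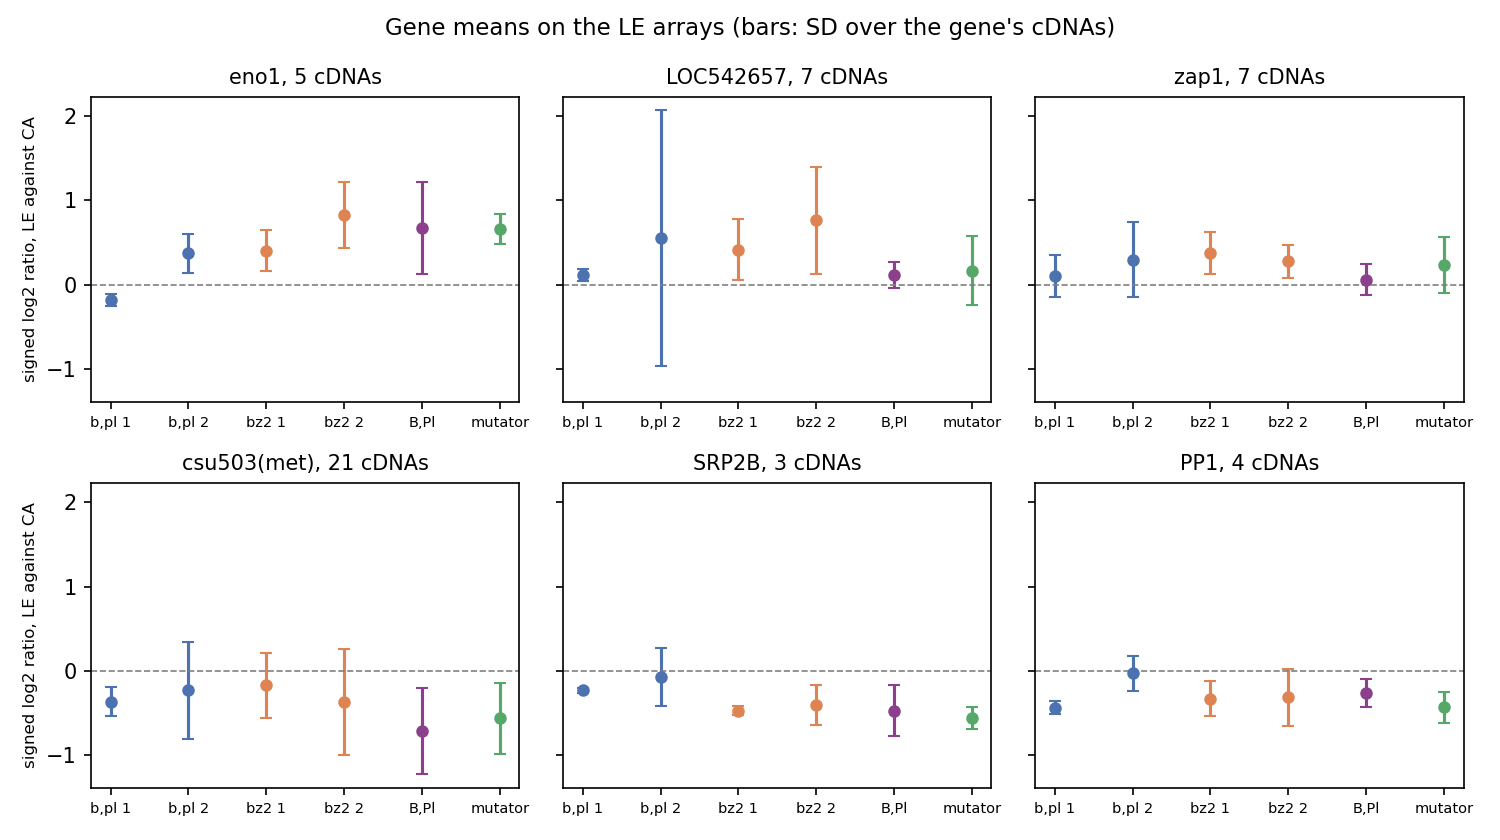
Mean signed log2 ratio of LE against CA over a gene's cDNAs (y axis) on each of the 6 LE arrays (x axis) for eno1, LOC542657, zap1, csu503(met), SRP2B and PP1, with bars of 1 SD over the gene's cDNAs and colours by genotype. The eno1 mean is −0.18 on the first b,pl array and above 0.3 on the others, and the means of csu503(met), SRP2B and PP1 are below 0 on every array.

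The genes were also counted in 22 lists. All 5392 cDNAs tested had 2662 positive and 2730 negative estimates, a median of −0.004, and 3.67% passing as positive and 2.86% as negative. Among energy and carbon genes, glycolysis had 21 of 29 cDNAs positive, 2 passing as positive and a median of 0.16. On the b,pl array with LE in Cy5, however, 20 of 29 were negative, with a median of −0.17, and on the bz2 array with LE in Cy5 16 of 29 were. Fermentation and other dehydrogenases had 10 of 14 positive with 1 passing and a median of 0.08, with 9 of 14 negative on the b,pl array with LE in Cy3. Sucrose and starch genes had 13 of 21 negative with 2 passing as negative and a median of −0.11. Photosynthesis and C4 cycle genes had 7 of 8 positive with 0 passing, but 7 of 8 were negative on the b,pl array with LE in Cy3, with a median of −0.31, and 4 of 8 on the other b,pl array. Mitochondrial carriers and membrane proteins had 19 of 25 positive with 1 passing, the ANT1 cDNA above, and on each bz2 array 15 of 25 were negative.

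Protein synthesis and folding genes had 0 cDNAs passing. The EF1-alpha genes had 47 of 58 negative and a median of −0.18, although 47 of 58 were positive on the b,pl array with LE in Cy3 and 40 of 58 in mutator. Translation initiation factors had 8 of 12 negative and ribosomal proteins 8 of 15 positive, with medians of −0.03 and 0.05. Heat shock proteins and chaperones had 46 of 57 negative and a median of −0.11, although 38 of 57 were positive on the b,pl array with LE in Cy3. Ubiquitin and proteolysis genes had 4 of 7 positive and a median of 0.17, with array medians from −0.31 in mutator to 0.21 on the bz2 array with LE in Cy3.

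Among nuclear genes, histones had 43 of 67 positive, with 2 passing as positive, 1 each of the linker histone gene his1a and of his2b5, and 1 of the linker histone gene his1 as negative. On the b,pl array with LE in Cy3 and on the B,Pl array 41 of 67 histone cDNAs were negative. Chromatin modifiers had 26 of 47 positive with 3 passing as positive and 1, a cDNA of the histone deacetylase gene HDT1, as negative. Those 3 were cDNAs of nfd101, which had 12 of 19 positive. Transcription factors had 33 of 54 positive, with 3 passing as positive and 1, a cDNA of the leaf polarity gene rld1, as negative. DNA replication and repair genes had 4 of 6 positive, with the pcna2 cDNA passing. Calmodulin, kinases and phosphatases had 15 of 28 positive with 2 passing as negative, a cDNA of PP1 and one of CDPK, a calcium-dependent protein kinase gene.

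Antioxidant and glutathione enzymes had 10 of 17 positive, with 1 cDNA of sod3, a superoxide dismutase gene, passing at 0.51 (SE 0.08, limma adjusted p = 0.0358). Aquaporins had 12 of 17 positive with 0 passing and a median of 0.12, and 11 of 17 were negative on the b,pl array with LE in Cy5. The phenylpropanoid list held only the CAD2 cDNA, at −0.01. The cell wall list held the 2 cDNAs of RGP, a reversibly glycosylated polypeptide of the kind that serves wall polysaccharide synthesis. Their mean was 1.16 and 1.72 on the b,pl arrays, 0.47 and 0.43 on the bz2 arrays, 0.40 in B,Pl and 0.23 in mutator. The b,pl arrays lay above all others, and the mean of 0.82 did not pass (SE 0.21, limma adjusted p = 0.0767).

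The next comparison asked whether the LE response differed between genotypes. The 6 LE arrays alone leave 1 residual degree of freedom for this, so it was tested in a model of all 27 arrays. Of 5361 cDNAs 13 passed the F test of a genotype difference (0.242%), and 217 had an unadjusted p below 0.05 (4.05%). None of the 13 carried a gene name, which 811 of all 5400 cDNAs did. Of the 13, 0 were among the 352 cDNAs above, which were 6.53% of those tested. Values that differ widely between genotypes also widen the error in the 6-array fit, so little overlap could arise. The genotype farthest from the others was B,Pl for 8, bz2 for 3, mutator for 2 and b,pl for 0 of the 13. The B,Pl and mutator responses each rest on 1 LE array, so a genotype difference there cannot be told apart from that array. Of the 13 cDNAs 12 lacked a value at some spot of the 6 arrays (92.3%), against 14.5% of all cDNAs. A value that is a whole number as a plain ratio was present in 9 of 13 (69.2%), against 6.59% of all cDNAs, and the part of such spots in these calls was not tested.

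The cDNA at spot 403 had the smallest p in the F test, with −0.03 and 0.45 in b,pl, −3.54 on 1 bz2 array and no value on the other, 1.82 in B,Pl and −1.50 in mutator (limma adjusted p = 0.000886). The cDNA at spot 13537 was at −3.55 in B,Pl and between −0.20 and 0.06 on the other 5 arrays (limma adjusted p = 0.0122). The cDNA at spot 11938 was at 3.88 and 2.49 on the bz2 arrays, −1.23 in B,Pl and between 0.04 and 0.28 elsewhere (limma adjusted p = 0.0179). The cDNA at spot 12547 was at 4.03 in B,Pl and −0.98 in mutator and between −0.38 and 0.08 on the others (limma adjusted p = 0.0179).

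Between pairs of genotypes, the count of passing cDNAs was 15 for B,Pl minus bz2 (0.279%), 11 for mutator minus B,Pl (0.205%), 6 for B,Pl minus b,pl (0.112%), 2 for bz2 minus b,pl (0.037%) and 2 for mutator minus b,pl (0.0371%). It was 0 for mutator minus bz2 in limma, with 115 at an unadjusted p below 0.05 (2.13%). None of these cDNAs had a name, which 811 of all 5400 did. At an unadjusted p below 0.05 the shares were 6.81% for bz2 minus b,pl, 3.5% for B,Pl minus bz2, 2.82% for mutator minus b,pl, 2.61% for B,Pl minus b,pl and 2.33% for mutator minus B,Pl. The 3 pairs with the most calls at the adjusted threshold were those with B,Pl.

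The named cDNAs with the smallest p in the F test did not pass. That of hsp70-4 at spot 7903 had 1.41 and 1.71 on the bz2 arrays, 0.63 in mutator and between −0.28 and 0.09 elsewhere (limma adjusted p = 0.141). This cDNA went against the other hsp70-4 cDNAs on the bz2 arrays, where the gene mean was −0.06 and −0.22. The tua3 cDNA at spot 12064 had −1.03 and −0.90 in bz2, 0.98 in B,Pl and −0.35 to −0.11 elsewhere (limma adjusted p = 0.395). The csu503(met) cDNA at spot 2425, the LOC542721 cDNA at spot 2443 and the sod3 cDNA at spot 13180 had limma adjusted p of 0.377, 0.488 and 0.59.

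Elongation factor 1-alpha, which carries aminoacyl-tRNA to the ribosome, had its lowest values on both bz2 arrays, while the b,pl arrays had opposite signs. The median of its 58 cDNAs was −0.15 and 0.19 on the b,pl arrays, −0.61 and −0.72 on the bz2 arrays, −0.01 in B,Pl and 0.14 in mutator. On the bz2 arrays 53 and 52 of 58 were negative, and on no other array were more than 42. The gene means of elfa2 were −0.71 and −0.81 in bz2 and between −0.16 and 0.18 elsewhere, and elfa3 had −0.56 and −0.70 in bz2 and −0.10 to 0.20 elsewhere. In both genes the means on the bz2 arrays lay below those on the others. Single cDNAs overlapped, and those of elfa3 reached 0.21 and 0.85 on the bz2 arrays. Whether the EF1-alpha genes cross-hybridised was not tested. The difference of bz2 minus b,pl was −0.78 for elfa2 (SE 0.34, limma adjusted p = 0.762) and −0.68 for elfa3 (SE 0.34, limma adjusted p = 0.792), so neither passed. The cDNAs of 1 gene share a target and are not replicates.

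The means of ANT1 and ANT2 were lowest on the bz2 arrays too. The ANT2 mean of 4 cDNAs was 0.50 and 0.43 in b,pl, −0.14 and −0.20 in bz2, 0.57 in B,Pl and 0.23 in mutator. The ANT1 mean was 0.39 and 0.21, 0.01 and −0.06, 0.42 and 0.28 in the same order. The bz2 arrays lay below all others in the mean of both genes, but on each of them 6 of the 12 ANT1 cDNAs were positive. The ANT1 cDNA at spot 14269 lacked this pattern. It had 0.81 and 0.87 in bz2 and its lowest value, 0.51, on the second b,pl array. The difference of bz2 minus b,pl was −0.64 for ANT2 (SE 0.24, limma adjusted p = 0.695) and −0.33 for ANT1 (SE 0.33, limma adjusted p = 0.959). For RGP, bz2 minus b,pl was −0.99 (SE 0.32, limma adjusted p = 0.661).

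The INO1 mean was lowest in b,pl and the sam2 mean on the first b,pl array, but no difference between genotypes passed for either gene. For INO1 the difference of mutator minus b,pl was 1.04 (SE 0.78, limma adjusted p = 1.00) and that of bz2 minus b,pl was 0.61 (SE 0.63, limma adjusted p = 0.959). For sam2 B,Pl minus b,pl was 0.73 (SE 0.44, limma adjusted p = 1). A p that misses the threshold does not show that the genotypes respond alike, and for INO1 the standard errors of the 6 differences ran from 0.63 to 0.88.

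**Figure D4:**
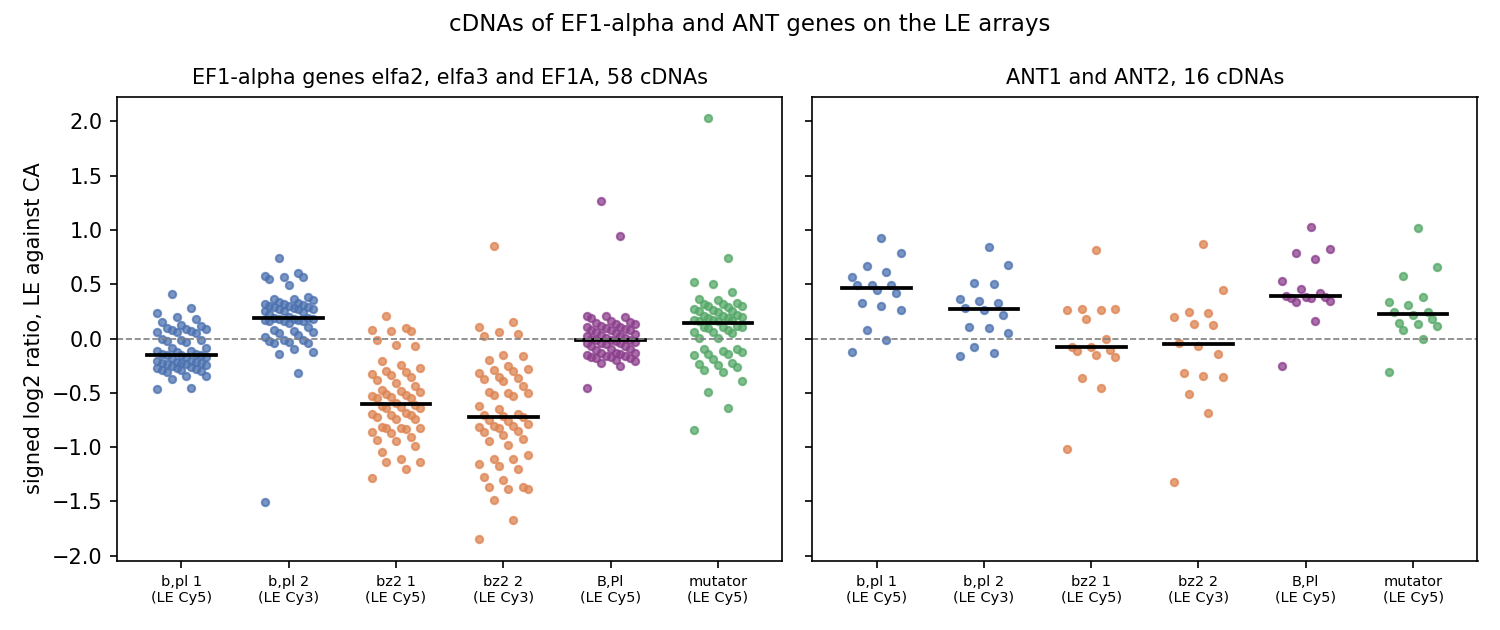
Signed log2 ratio of LE against CA (y axis) on each of the 6 LE arrays (x axis, dye of LE in brackets) for the 58 cDNAs of the EF1-alpha genes elfa2, elfa3 and EF1A (left) and the 16 cDNAs of ANT1 and ANT2 (right). Points are cDNAs, black bars are medians and colours mark genotypes; the EF1-alpha medians are −0.61 and −0.72 on the bz2 arrays and between −0.15 and 0.19 on the others.

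A further comparison set LE beside PE, the other plastic measured against CA in all 4 genotypes, with 7 arrays in which the other channel held CA leaf RNA, which on 2 of the 3 B,Pl arrays came from b,pl. The PE values are relative to CA of the own genotype through the model, and LE and PE share that CA control. Averaged over genotypes with equal weight in the model of all arrays, LE minus PE passed for 17 of 5339 cDNAs (0.318%), with 1205 at an unadjusted p below 0.05 (22.6%). Of the 17, 8 were positive and 9 negative. Among them 11 belonged to the 352 cDNAs that passed for LE, which were 6.53% of all tested. Both comparisons use the same LE arrays, so an overlap is built in. The count of LE minus PE calls was 5 without the b,pl array with LE in Cy5, and 0 without any 1 of the other 3 b,pl and bz2 LE arrays (1013 to 1085 unadjusted). It was 209 or 425 when the sign of the second b,pl PE array or the third B,Pl PE array was turned, 2 arrays whose direction is uncertain.

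The named ones of the 17 were the ANT1, stomatin1 and tua5 cDNAs. For ANT1 at spot 14269 PE gave 0.08 in b,pl, −0.72 in bz2, −0.58 in B,Pl and −0.99 in mutator. The average was 0.84 under LE and −0.55 under PE, a difference of 1.39 (SE 0.23, limma adjusted p = 0.0428). For stomatin1 at spot 5980 PE gave 0.40, 0.95, 0.52 and 0.48 in the same order, all above 0, whereas all 6 LE array values lay between −0.38 and −0.07. The average was −0.28 under LE and 0.59 under PE, a difference of −0.87 (SE 0.13, limma adjusted p = 0.0428). For tua5 at spot 1930, 1 of 8 cDNAs of that gene, the average was −0.86 under LE and 0.11 under PE. The difference was −0.97 (SE 0.16, limma adjusted p = 0.0428).

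The fitted INO1 and sam2 means were farther from 0 under LE than under PE. Both genes stood out by their LE values, which this comparison uses again. The PE values of b,pl and B,Pl include the 2 arrays of uncertain direction. The fitted INO1 mean was 0.56 in b,pl, 1.17 in bz2, 1.26 in B,Pl and 1.60 in mutator under LE, and −0.21, 0.02, −0.08 and 0.19 under PE. The LE values lay above the PE values in 4 of 4 genotypes. The averages were 1.15 and −0.02, a difference of 1.16 that did not pass (SE 0.38, limma adjusted p = 0.112). For sam2 the LE means were 0.41, 0.56, 1.14 and 0.93 and the PE means 0.06, −0.04, −0.13 and 0.19, a difference of averages of 0.74 that did not pass (SE 0.21, limma adjusted p = 0.091). For eno1 the difference was 0.60 (SE 0.16, limma adjusted p = 0.0852) and for ANT1 it was 0.49 (SE 0.20, limma adjusted p = 0.187).

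**Figure D5:**
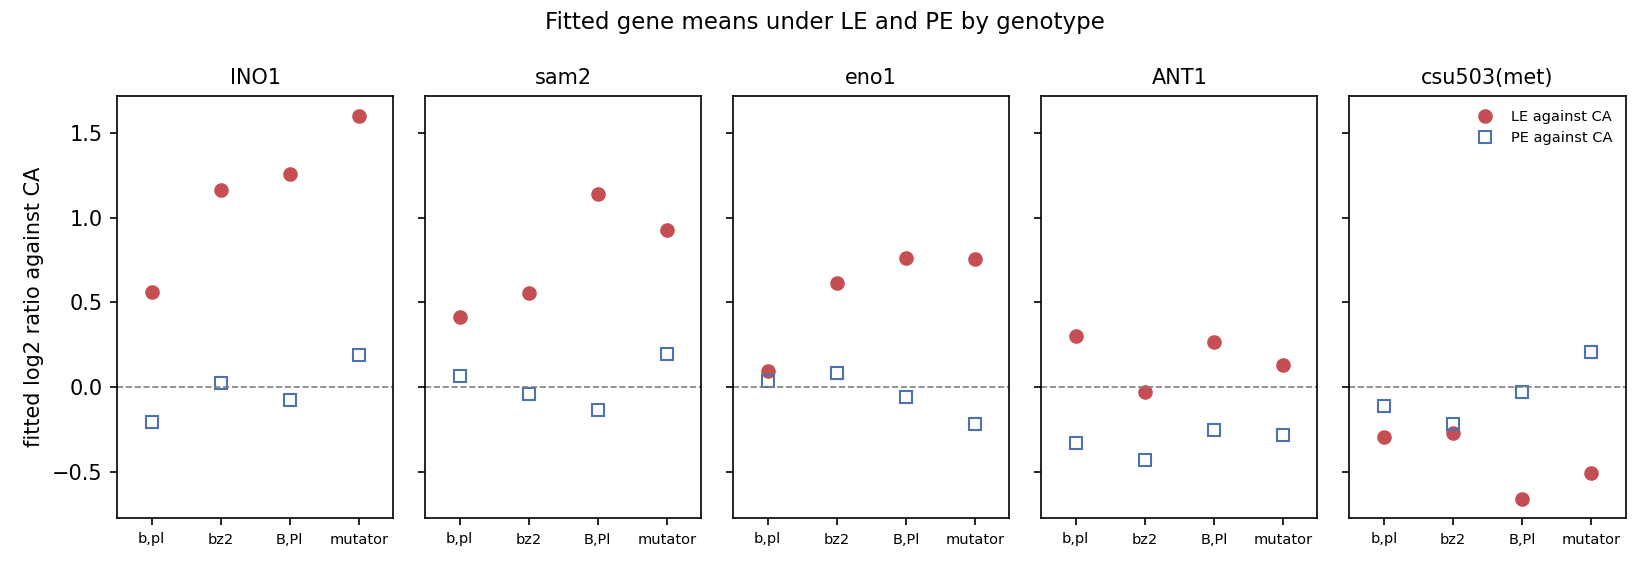
Fitted gene means against CA on the log2 scale (y axis) by genotype (x axis) under LE (filled circles) and PE (open squares) for INO1, sam2, eno1, ANT1 and csu503(met). The INO1 circles lie between 0.56 and 1.60 and the squares between −0.21 and 0.19.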

How the data were processed

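For every spot 1 log2 ratio was deposited. How the authors scanned, corrected and normalized the arrays, and which dye is the numerator: not given in the sources used here. Base 2 was inferred: 16.3% of values over 2 in size gave whole numbers as powers of 2 (tolerance 1e-04) and 0.0751% as powers of e. Groups and dyes came from the array titles, which disagree with another label on the dye of 4 arrays outside the LE arrays. Per-spot values of 3 adjacent spots were averaged to cDNAs (median SD within these triplets 0.039, against 0.178 in triplets shifted by 1 spot), each array was centred on its median, and values were signed by dye. Medians of the deposited values were −0.68 to 0.28 on the LE arrays.

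The 6 LE arrays were fitted with limma 3.58.1 in R 4.3.3 (LE and dye terms, 4 residual and 2.16 prior degrees of freedom) for cDNAs with a value on at least 5 arrays. Genotype differences and LE minus PE came from all 27 arrays (19 terms, 8 residual and 2.42 prior degrees of freedom), solved by least squares per cDNA with at least 14 values, with variances shrunk as in limma. Arrays alone in their group were assumed to vary like the others. P-values are two-sided, adjusted by Benjamini and Hochberg over all cDNAs tested. The fits were tested on simulated data. Gene names came from a probe annotation of 811 cDNAs, which is old, and 208 of 213 genes matched the gene table of a reference assembly.

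Named were the 10 positive and 10 negative annotated cDNAs with the smallest p among those past the threshold, genes with at least 3 cDNAs and 80% on 1 side, up to 12 a direction, up to 4 members of each of 22 gene lists, up to 2 unnamed cDNAs a direction, and for the genotype tests the 5 annotated and up to 2 unnamed cDNAs a direction with the smallest p. Members and lists were chosen with earlier results of these data known. Alternatives changed centring, scaling, spot summary, missing values, dye term, blocking, weights, reading of the sign and arrays left out.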

Additional observations from a re-analysis of the deposited data

Results flagged for a closer look

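Given here as values are 4 cDNAs without a gene name that the F test across all 27 arrays flagged for a genotype difference in LE response. B,Pl had 1 LE array, and at spot 403 bz2 had a value on 1 array only. A genotype difference seen there cannot be told apart from that array. The limma adjusted p was 0.000886 for the cDNA at spot 403, where bz2 was low and B,Pl high, with 12 of 18 spots measured on the LE arrays. It was 0.0122 for the cDNA at spot 13537, low in B,Pl alone, with 17 of 18 spots. It was 0.0179 for the cDNA at spot 11938, high in bz2, with 12 of 18 spots, and 0.0179 for the cDNA at spot 12547, high in B,Pl, with 13 of 18. No genotype had 4 or more LE arrays, so single arrays were not tested as outliers.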

How the results depend on the processing

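Each array pairs LE and CA leaf of 1 genotype, so the values are paired within arrays. Pairing across genotypes was not possible, because the labels give no replicate numbers that link arrays of different genotypes. The dye swaps within b,pl and bz2 were averaged or blocked by genotype instead, as given next. Under alternatives, cDNAs passing for LE numbered 48 without centring, 192 with scaled arrays, 0 with dye swaps averaged (1233 at an unadjusted p below 0.05 in limma), 39 with genotype as a random block, 69 in the model of all 27 arrays, 0 with array weights (957 unadjusted; added after the data were seen) and 1 when read as LE over CA whatever the dye, and 0 to 454 with 1 array left out. The genotype F test gave 1 without centring, 27 with scaled arrays, 0 on the 6 LE arrays alone (256 unadjusted) and 2 to 46 with 1 LE array left out. The summed calls of the 6 genotype pairs, 36 in the main analysis, became 16, 102, 0 (1490 unadjusted) and 4 to 161 in the same order. LE minus PE gave 26 without centring, 253 with scaled arrays, 160 with at least 2 spots per cDNA, 1 when read as group over other channel (580 unadjusted), 0 to 5 with 1 array left out, and 209 or 425 with a PE array turned; without the B,Pl or mutator LE array it could not be estimated. For LE minus PE, the spot minimum, the reading of the sign and the arrays left out, and for the genotype pairs all alternatives, were added after the data were seen. cDNAs of 1 sign on all 6 arrays fell to 322 without centring, which moved the median of all cDNAs to 0.07. The causes were not tested.

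For the 24 cDNAs named by p or size, 408 values came from 17 alternatives. Of these, 189 kept direction and side of the threshold, 202 kept direction but no longer passed and 17 changed sign, all 17 when read as LE over CA whatever the dye. The values there were −0.27, −0.079 and −0.034 for INO1 at spots 2851, 3106 and 13819, −0.10 for pcna2, −0.052 for sam2 at spot 12025, 0.58 for sh1, 0.30 for tua5, 0.18, 0.18, 0.14 and 0.13 for tua4 at spots 7324, 3142, 15277 and 9382, 0.14 for sus1, 0.019 for SRP2B, 0.15 for PEAMT, 0.43 for csu503(met), and 0.033 and 0.050 for the cDNAs at spots 1723 and 15100.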
